A study of Homo sapiens with 3 samples.

Results

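The gene set described here encodes 10 proteins that cut and polyadenylate messenger RNA 3′ ends: CPSF1, CPSF2, CPSF3, CPSF4, CPSF6, CPSF7, NUDT21, CSTF1, CSTF3 and PCF11. YTHDC1 is a nuclear reader of N6-methyladenosine (m6A) in RNA, and CPSF6 is a known partner of the protein, so the question was where YTHDC1 chromatin peaks lie at the genes of this machinery. Peaks were taken within each gene or 1000 bases around it, and 2 of the 6368 peaks met that rule. They belonged to 2 of the 10 genes, CPSF2 and CPSF7, and each gene held 1 peak. The other 8 genes, CPSF6 among them, had none.

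YTHDC1 ChIP-seq was performed in A549, an established human lung adenocarcinoma line, in wild-type cells. The series holds 1 group of 3 replicates with no second condition, and no input, IgG or YTHDC1-depleted library was analysed here. The authors pooled the replicates' reads and called 1 set of broad peaks, so the values below carry no spread between replicates, the depth of each library is unknown and no test was run. Each peak has a position on hg19 and a single value, taken here to be −log10 q, the q-value being the p-value of the caller corrected for the number of places tested. A higher number means a more significant enrichment over the background that the caller estimated.

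Nearly all polyadenylated messenger RNAs receive their 3′ end in 2 linked steps, cleavage of the nascent transcript and addition of a poly(A) tail. The cleavage and polyadenylation specificity factor (CPSF) reads the AAUAAA signal and cuts the RNA, the cleavage stimulation factor (CstF) binds the sequence behind the cut, cleavage factor I (CFIm) binds UGUA elements ahead of it and steers the choice between alternative sites, and cleavage factor II (CFIIm) couples the reaction to the end of transcription. YTHDC1 has been linked to splicing, nuclear export and, with CPSF6, to alternative polyadenylation, work on the last of these having been done in mouse oocytes.

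Both peaks sat at divergent promoters, that is, start sites shared back to back with a gene on the other strand. The stretches below are printed to show the DNA of these promoters, mostly outside annotated exons, and the promoter of CPSF6, which had no peak, is set beside them. All are read from the GRCh37 reference, which has the same coordinates as hg19, 5′ to 3′ on the strand of the named gene, with each CpG dinucleotide in capitals. The first pair lies wholly inside the CPSF7 peak, in no annotated exon of CPSF7, at chr11:61197023-61197106 and chr11:61197188-61197228 on the minus strand. The third covers the gap between the outermost starts of NDUFB1 and CPSF2 plus the first 30 bases of CPSF2 (chr14:92588262-92588342, plus strand), of which the last 17 bases lie in the CPSF2 peak. The fourth is the 150 bases ahead of the outermost start of CPSF6 (chr12:69633199-69633348, plus strand).
CPSF7 peak, intron stretch 1: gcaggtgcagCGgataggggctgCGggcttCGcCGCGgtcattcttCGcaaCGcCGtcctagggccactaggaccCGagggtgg
CPSF7 peak, intron stretch 2: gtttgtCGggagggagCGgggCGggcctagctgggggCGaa
CPSF2 divergent promoter: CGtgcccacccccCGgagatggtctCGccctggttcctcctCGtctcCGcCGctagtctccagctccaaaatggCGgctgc
CPSF6 promoter: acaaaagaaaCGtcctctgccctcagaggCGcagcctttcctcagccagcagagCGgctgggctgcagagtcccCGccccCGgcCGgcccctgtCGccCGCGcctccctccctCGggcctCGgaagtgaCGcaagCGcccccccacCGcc

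The 4 stretches hold 9 CpGs in 84 bases, 4 in 41 bases, 7 in 81 bases and 14 in 150 bases, in the order printed. Their GC shares are 69.0%, 73.2%, 67.9% and 72.7%, and that of the CPSF6 stretch lies within the range of the others. The stretches differ in length and in position relative to the start and the peak, so these shares are not a matched comparison. The GC box GGGCGG, a short element common in CpG-rich promoters, occurs once in the second CPSF7 stretch and once, on the other strand, in the CPSF6 stretch.

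Among the CFIm genes, CPSF7 carried the stronger of the 2 peaks. CPSF7 (ENSG00000149532, minus strand, chr11:61170113-61197503) encodes a larger CFIm subunit, related to CPSF6. Its peak spanned 430 bases (chr11:61197019-61197448) with a −log10 q of 3.30, which back-calculates to a q-value of 0.000498. This ranked 417 among the 6368 peaks, above 93.5% of all peaks and 93.6% of the 3394 peaks within 200 bases of a start. Its width exceeded that of 67.6% of all peaks.

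The CPSF7 peak began 1 base ahead of the canonical start and ran 428 bases into the gene, with its midpoint 214 bases downstream. It covered the 62 bases of exon 1 of the canonical transcript, which has 10 exons, and 367 bases of intron 1. CPSF7 has 22 annotated starts, and 11 of them lay inside the peak and 16 within 200 bases of it. Because exons of these other transcripts crowd the same interval, 305 of the 430 bases are exon in at least 1 transcript and 74 are coding in at least 1.

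CPSF6 and NUDT21, the other CFIm genes, had no peak. CPSF6 (ENSG00000111605, plus strand, chr12:69633349-69668138) encodes the CFIm subunit known as a partner of YTHDC1. The nearest peak began 85.5 kb beyond the end of the gene (chr12:69753678-69754038, −log10 q 1.77) and lay 119 bases from a start of YEATS4, a reader of acetylated histones. NUDT21 (ENSG00000167005, minus strand, chr16:56463045-56486111), which encodes the subunit that recognises UGUA, had its nearest peak 72.3 kb downstream (chr16:56390341-56390744, −log10 q 1.39), inside GNAO1 and 7013 bases from the nearest protein-coding start. Of the 3 CFIm genes, only CPSF7 had a called peak.

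Among the 4 genes of the set that encode subunits of CPSF itself, only CPSF2 had a peak. CPSF2 (ENSG00000165934, plus strand, chr14:92588313-92638489) encodes a subunit that resembles the nuclease CPSF3 without cutting RNA itself. Its peak was 341 bases wide (chr14:92588326-92588666) with a −log10 q of 1.45, which back-calculates to a q-value of 0.0356. It stood close to the middle of the set, above 56.5% of all peaks by value and 48.2% by width. The medians over all peaks were 1.33 and 348 bases, and over the peaks at starts 1.39 and 374 bases.

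The CPSF2 peak lay fully downstream of the canonical start, between 13 and 353 bases from it, with the midpoint at 183 bases. It overlapped 147 bases of exon 1 of 16 and 194 bases of intron 1 of the canonical transcript, and all 341 bases are exon in at least 1 transcript. No coding base was covered, and 3 of the 5 annotated starts of CPSF2 lay within 200 bases of it.

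**Figure D1:**
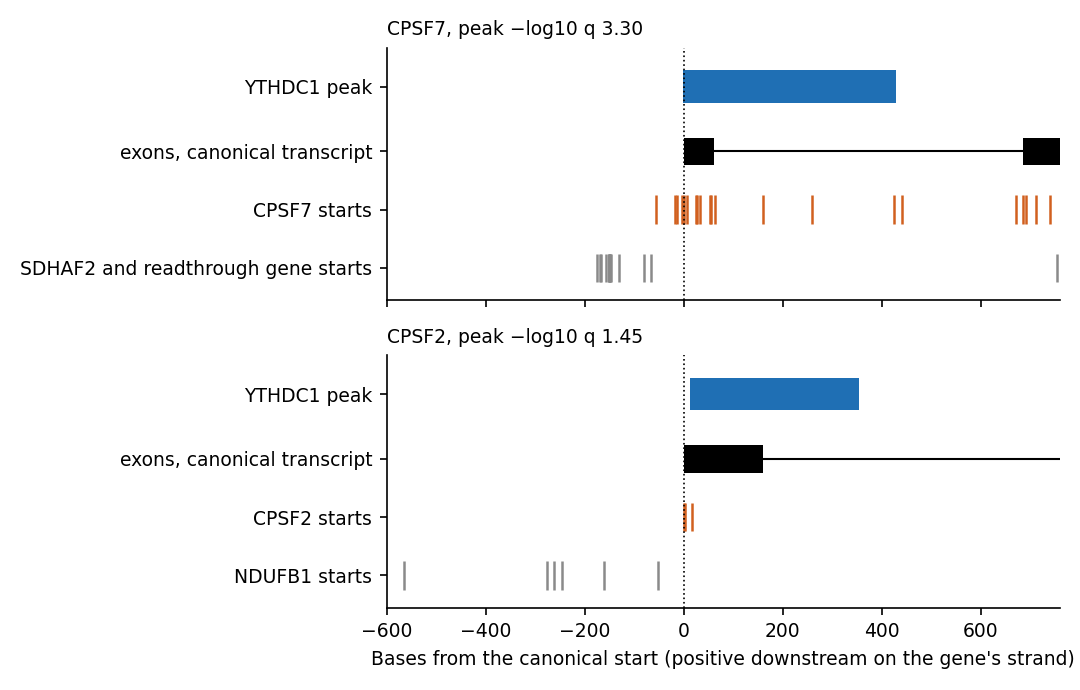
Map of the peaks at CPSF7 (top) and CPSF2 (bottom) along the gene, in bases from the canonical start (x axis, positive downstream on the strand of the gene). Blue boxes are the YTHDC1 peaks, black boxes exons of the canonical transcript, orange ticks annotated starts of the named gene and grey ticks starts of the neighbouring genes; the peaks run between -1 and 428 bases and between 13 and 353 bases, on the side of CPSF7 and CPSF2.

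CPSF1, CPSF3 and CPSF4 had no peak. CPSF1 (ENSG00000071894, chr8:145618444-145634719), the large scaffold subunit of CPSF, lay 47.3 kb from the nearest one (chr8:145681995-145682695), a peak of 701 bases with a −log10 q of 4.25 that was 329 bases from a start of ZFTRAF1. CPSF3 (ENSG00000119203, chr2:9563780-9613230) encodes the nuclease that makes the cut. Its nearest peak, 41.9 kb upstream within ASAP2 (chr2:9521484-9521835), was weak, with a −log10 q of 0.775. CPSF4 (ENSG00000160917, chr7:99036545-99054996), a zinc finger subunit that binds the AAUAAA signal, was 63.3 kb from a peak next to ARPC1B (chr7:98972882-98973250, −log10 q 1.38).

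The CstF and CFIIm genes had no peak either, and 2 of them lay farthest from any. CSTF1 (ENSG00000101138, chr20:54967427-54981418), which encodes a CstF subunit with WD repeats, was 224.0 kb from the nearest peak, one beside a start of TFAP2C (chr20:55205380-55205793, −log10 q 2.81). CSTF3 (ENSG00000176102, chr11:33098734-33183917), the CstF subunit that bridges the complex, was 95.0 kb from a peak over a start of HIPK3 (chr11:33278914-33279411, −log10 q 1.66). PCF11 (ENSG00000165494, chr11:82868030-82898493), the CFIIm subunit that contacts RNA polymerase II, was 422.7 kb from a peak near FAM181B (chr11:82444977-82445293, −log10 q 0.656). CSTF3 and PCF11 are known for polyadenylation sites inside their introns, and no peak lay in an intron of either gene.

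The 8 genes without a peak were thus 41.9 to 422.7 kb from the nearest one, with a median of 78.9 kb. Such distances were common: of all 20136 protein-coding genes, 55.2% had no peak inside the gene or closer than the 41.9 kb of CPSF3, a limit that the set itself fixed. The median distance over the 10 genes, those with a peak counted as 0, was 67.8 kb, and over all protein-coding genes 59.3 kb. Only 16.7% of protein-coding genes lay farther from a peak than PCF11, and 27.3% farther than CSTF1.

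**Figure D2:**
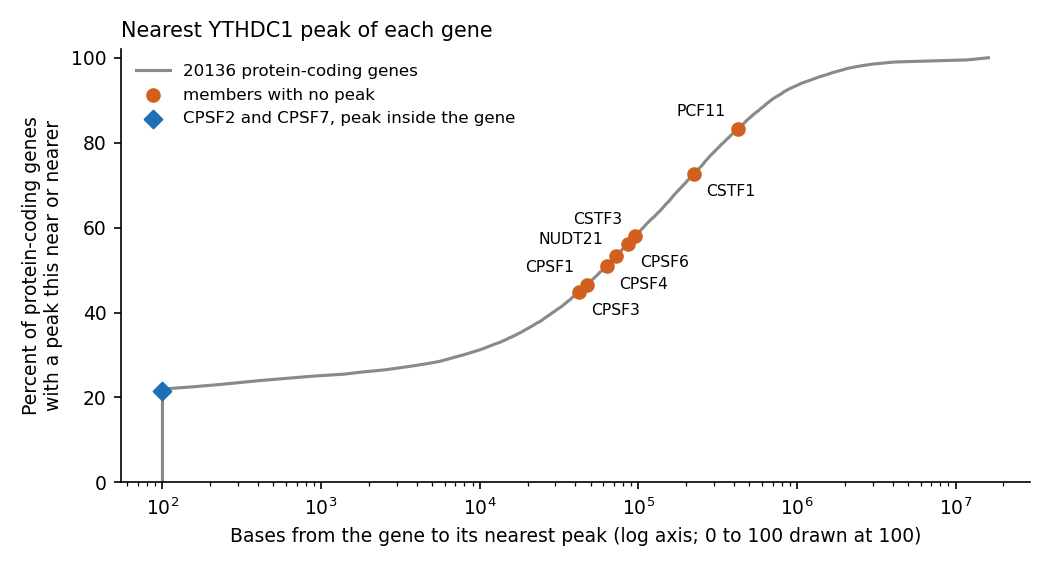
Percent of the 20136 protein-coding genes with a peak at or below a given distance (y axis) against the bases between gene and nearest peak (x axis, log scale, with the shortest distances drawn at its left end). The grey line is all protein-coding genes, orange points the 8 genes of the set without a peak, between 41.9 kb (CPSF3) and 422.7 kb (PCF11), and the blue diamond CPSF2 and CPSF7, whose peaks lie inside the gene.

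The number of peaks in the surroundings differed among the genes. Within 500 kb on both sides of the canonical start, CPSF1 had 13 peaks, more than 91.5% of protein-coding genes, CPSF7 had 7 and CPSF4 had 6. CSTF3 had 5, CPSF3 had 4, CPSF6 and NUDT21 had 3 each, CPSF2 and CSTF1 had 2 each, and PCF11 had 1. The median was 3.5 over the set and 3 over all protein-coding genes (quartiles 1 and 7). The gene with most peaks around it, CPSF1, had none of its own, and the 2 peaks around CPSF2 included its own.

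Counted over the set with all deposited peaks, the share of genes with a peak was near that of protein-coding genes in general. The 2 of 10 genes with a peak in the gene or 1000 bases around it stand beside 25.1% of protein-coding genes, and beside 26.5% of the 9090 protein-coding genes whose length lies in the same range as the set, 14.0 to 85.2 kb. Both peaks were within 200 bases of an annotated start, so that the start count was also 2 of 10, against 15.7% of protein-coding genes. No gene of the set had a peak farther than 200 bases from all of its starts. With peaks of a q-value under 0.05 only, the set still had 2 of 10 on both counts, while the shares of protein-coding genes were 14.4% for a peak in or around the gene and 8.97% for a peak at a start, so whether the set stood below or above the first share depended on that threshold.

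Genes with more annotated starts have more places for a peak to be counted. The set has 96 starts, of which the 19 within 200 bases of a peak belong to CPSF2 and CPSF7. CPSF7 has most, 22, and CPSF2 is one of 2 genes with fewest, 5, the other being CPSF3. CPSF1 has 14 and CPSF4 has 13 starts, all without a peak. Protein-coding genes with a start peak have a median of 8 starts, against 5 in those without.

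Divergent promoters were common in the set, at 6 genes, beside 2775 of all 20136 protein-coding genes, and this difference was not tested. Both peaks lay at such a promoter. A protein-coding start on the other strand was annotated within 1000 bases of the canonical start, on either side, for 6 genes: CPSF2 (with NDUFB1), CPSF3 (ITGB1BP1), CPSF4 (PTCD1), CPSF7 (SDHAF2 and the readthrough gene ENSG00000256591), NUDT21 (OGFOD1) and CSTF1 (AURKA, a mitotic kinase gene). Of these 6, 2 had a peak at a start, beside 19.2% of the 2775 protein-coding genes with such a partner. Of CPSF1, CPSF6, CSTF3 and PCF11, which have no such partner, 0 of 4 had a start peak, beside 15.1% of the other protein-coding genes. The limit of 75.0% for this count, 3 counts over 4 genes, is only a rough bound with so few genes. The counts are too small to set these groups apart.

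A peak at such a promoter is counted for both genes. The CPSF2 peak lay 65 bases from the nearest of the 7 starts of NDUFB1, a subunit gene of respiratory complex I, and 276 bases from its canonical one. The CPSF7 peak lay 66 bases from the nearest start of SDHAF2, an assembly factor for succinate dehydrogenase, and 148 bases from its canonical start, with all 6 SDHAF2 starts within 200 bases. It was also 80 bases from a start of the readthrough gene. In both cases the called interval lay on the side of the 3′ end processing gene and covered no start of the named partners NDUFB1 and SDHAF2. ChIP fragments carry no strand that would assign a peak to either gene, and which transcription unit the signal belongs to was not tested.

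The position of both peaks just inside the gene is a common one. In 2394 pairs of a protein-coding gene and a peak within 200 bases of its canonical start, the peak began no more than 1 base ahead of that start in 37.5%, as at CPSF7 and CPSF2. The median midpoint was 116 bases downstream, against 183 bases at CPSF2 and 214 bases at CPSF7.

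Both peaks were richer in G, C and CpG than the median of the collection. The CPSF7 peak had a GC share of 73.0% and 0.935 of the CpGs that its C and G content predicts (the CpG ratio), with 49 CpGs, and both measures exceeded those of 89.3% of all peaks. The CPSF2 peak had 66.9% GC, a CpG ratio of 0.799 and 30 CpGs, above 68.3% and 67.3% of peaks. Median values were 61.2% and 0.690 over all peaks and 66.2% and 0.795 over peaks at starts.

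The promoters of the set (250 bases before to 50 bases after the canonical start) had a CpG ratio above the protein-coding median, except at NUDT21 and CPSF6. These exceptions are among the 8 genes without a peak, and the rest of those 8 lay above that median. The GC share of the 10 promoters ran between 57.3% at CPSF2 and 75.7% at CPSF1, with a median of 64.0% beside 63.7% over all protein-coding genes. The CpG ratio had a median of 0.951 in the set and 0.773 over all protein-coding genes, and was lowest at NUDT21 (0.609) and CPSF6 (0.750) and highest at CPSF4 and CPSF7 (both 1.07). CPSF2 had the lowest GC share of the 10 and still had a peak, whereas CPSF1 and CPSF4 (73.3%) stood above CPSF7 (72.3%) and had none. Protein-coding genes with a start peak had a median GC share of 66.7% and a CpG ratio of 0.862, against 62.7% and 0.744 in those without.

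Short promoter elements were searched in the same windows of 300 bases, on both strands and with overlaps allowed. The GC box GGGCGG occurred in 7 of the 10 promoters (61.0% of all protein-coding promoters), 5 times at CPSF7 and not at CPSF2. CCAAT occurred in 7 of 10 (35.9%), at CPSF2 but not at CPSF7. The core of the site bound by ETS factors, CCGGAA, occurred in 5 of 10 (22.6%), with 4 matches at CPSF7 and none at CPSF2 or CPSF6. TATAAA occurred in none of the 10 (9.81% of all promoters), and the exact letters AAGATGG, part of a YY1 site, in CSTF1 alone (6.44%). Variants of these letters were not searched. The CPSF2 stretch printed above contains a variant, AAAATGG, within the bases that lie in the CPSF2 peak. The m6A core motif GGACT, searched on the strand of the gene only, was present in CPSF1, CPSF4 and CPSF7 (25.8% of all promoters). In these promoter windows, CPSF2 and CPSF7 had none of the 6 elements in common. These are matches of letters, and none was shown to be a bound site.

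In 300 bases around the peak midpoints, the GC box was found once at CPSF2 and in 2 places at CPSF7, and 43.7% of all peaks held it. CCAAT occurred once in the CPSF2 window (22.6% of peaks) and CCGGAA once in the CPSF7 window (17.2%). TATAAA and AAGATGG were in neither window. GGACT, here on both strands, was found in 2 places in the CPSF2 window and not in the CPSF7 window (43.1% of peaks). Over the whole peaks, whose widths differ, GGACT on the strand of the gene occurred in both, 1 time at CPSF2 and 2 times at CPSF7.

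**Figure D3:**
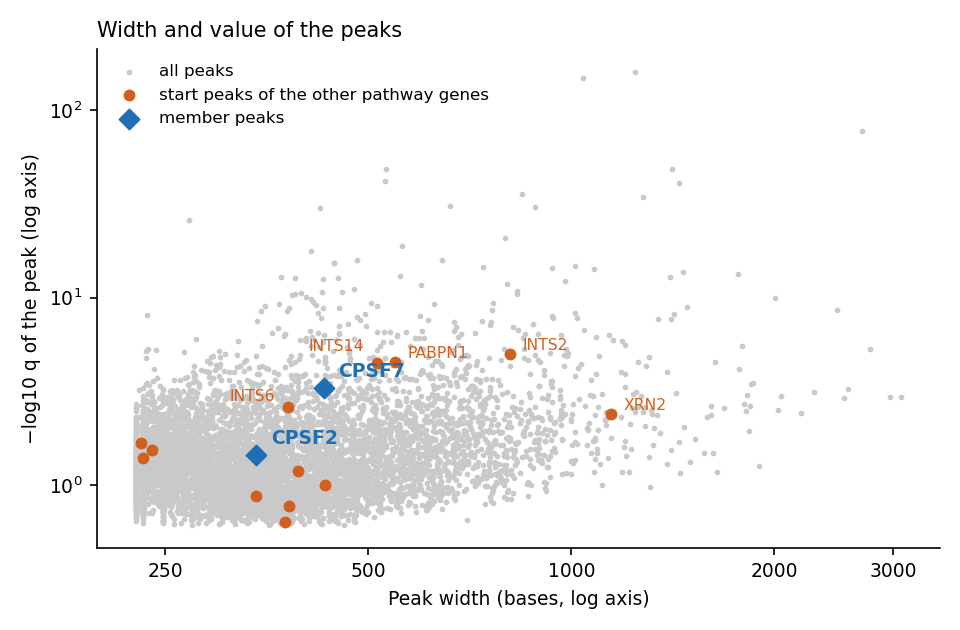
Width in bases (x axis, log scale) and −log10 q (y axis, log scale) of the 6368 YTHDC1 peaks (grey), of the 2 peaks at CPSF2 and CPSF7 (blue diamonds) and of the start peaks of the other genes of the pathway (orange). CPSF7 (430 bases, 3.30) lies among the stronger peaks of its width and CPSF2 (341 bases, 1.45) in the middle of the collection.

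Other genes of RNA 3′ end formation were looked up in 5 lists with 42 genes in all, and 13 had a peak at a start, 31.0% beside 15.7% of protein-coding genes. The lists were chosen with results of these data known, and the difference was not tested. Of 14 further genes of the core cleavage and polyadenylation machinery, 4 had one. PABPN1, which encodes the nuclear poly(A)-binding protein, had the highest −log10 q of these, 4.51, in a peak of 547 bases. PPP1CB, a phosphatase catalytic subunit found with the complex, had 1.54, RBBP6, a ubiquitin ligase needed for cleavage, 0.997, and PAPOLA, the main poly(A) polymerase gene, 0.872. The last 2 values correspond to q-values above 0.05, as do those of SCAF8 (0.768), INTS12 (1.19) and the lowest of all 13 start peaks (0.631). The 31.0% thus includes peaks that such a threshold would drop, and it was not recounted there. The 15.7% of protein-coding genes also falls under that threshold, to 8.97%. CLP1, the other CFIIm subunit gene, and CPSF4L, a relative of CPSF4, had none.

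Of 5 genes of histone 3′ end processing, a reaction that uses CPSF2 and CPSF3 but adds no poly(A) tail, ZNF473 had a start peak (−log10 q 1.39), and CASP8AP2 and LSM10 had none. Of 6 termination genes, 2 had one: XRN2, the exonuclease that degrades the RNA left behind by cleavage, with 2.38 in a wide peak of 1145 bases, and SCAF8, a relative of PCF11 in its polymerase-binding domain, with 0.768. RPRD1A and RPRD1B had none.

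Of 14 genes of Integrator, a complex that cuts small nuclear RNAs and promoter-proximal transcripts, 5 had a start peak. The highest −log10 q were 5.01 at INTS2, 4.46 at INTS14, 2.62 at INTS6 and 1.19 at INTS12, and INTS1 and INTS10 had no peak. INTS9 and INTS11 are the Integrator relatives of CPSF2 and CPSF3 and were looked at after their values were seen. Neither had a peak, so that CPSF2 was the one gene of these 4 with one.

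Of 3 SR splicing factor genes whose proteins are named as partners of YTHDC1 or CPSF6, SRSF3 had a start peak (1.67), while SRSF10 and SRSF7 had none at a start. SRSF7, SYMPK and INTS5 were the 3 genes of these lists that had a peak in the gene or within 1000 bases and none at a start of their own. At SYMPK, the CPSF scaffold gene, it lay 379 bases ahead of the gene (−log10 q 0.745), at SRSF7 424 bases beyond its 3′ end (0.824) and at INTS5 over its 3′ end (1.87). The INTS5 peak also lay within 200 bases of an annotated start of another gene, and which gene the signal belongs to was not tested. SYMPK, SRSF7 and INTS5 are named because of these values.

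In 10 of the 13 start peaks of these lists the midpoint lay downstream of the canonical start, as at CPSF2 and CPSF7. The median midpoint was 217 bases downstream over these 10 peaks and 189 bases over all 13. Their −log10 q ran between 0.631 and 5.01 with a median of 1.54, a range that contains both peaks of the set.

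**Figure D4:**
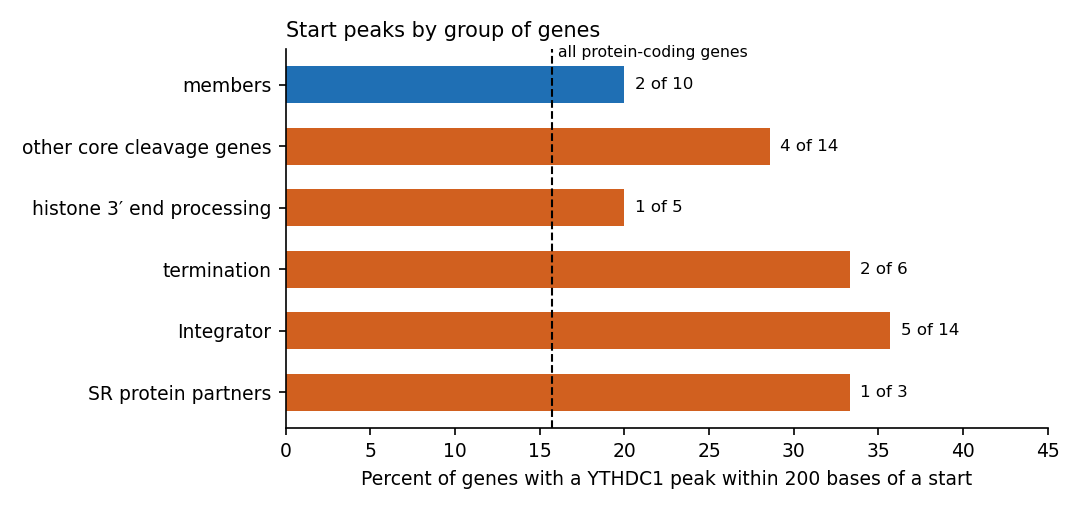
Percent of genes with a YTHDC1 peak within 200 bases of an annotated start (x axis) in the set of 10 genes (blue) and 5 other lists of the pathway (orange), with counts beside the bars. The dashed line marks 15.7% of all protein-coding genes; the set has 2 of 10 and the other lists between 1 of 5 and 5 of 14.

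A called peak marks a place where pooled reads passed the threshold of the caller. With an unknown depth and no control library, the lack of one at CPSF6 and the other 7 genes says that none was called there, not that YTHDC1 was absent.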

How the data were processed

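YTHDC1 ChIP-seq was measured in 3 samples of 1 group of A549 cells. Per the methods, the authors aligned reads to hg19, combined the replicates and ran MACS2 in broad mode (q 0.1, broad cutoff 0.25). The methods name Bowtie2 and the submitters' processing notes name BWA, deepTools and MACS2, so the aligner was not settled. The deposited file gives each peak a value read here as −log10 q, an inference: the lowest, 0.610, lies just above 0.602, the −log10 of the broad cutoff. The peak names point to a merging step that is not described in the sources used here. Depth per sample is unknown, and no value per replicate was analysed, so nothing was tested.

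Genes and starts came from GENCODE release 44 mapped to GRCh37, with coordinates counted from 1. An overlap needed 1 base. A peak was at a start if it reached within 200 bases of any annotated transcript start. A canonical start is that of the transcript tagged as canonical by Ensembl. All protein-coding genes with distinct symbols gave the comparison counts. Limits for counts of 0 use 3 counts, are rough for small groups and cover counting error only. Python 3.11.15, numpy 2.4.6, pandas 2.3.3 and pysam 0.24.0 were used. Overlap counts were tested on simulated intervals.

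The members, the other lists and the search letters were chosen with earlier results of these data known. All 10 genes are named, and of each other list up to 4 genes with a start peak and the highest value and up to 2 without one first in the alphabet. The planned sequences, parts of start peaks upstream of the start, do not exist at these peaks beyond 1 base. Stretches outside annotated exons are shown instead, a choice made after the data were seen, and the start of CPSF2 and the CPSF6 promoter were added then. Alternative thresholds, windows and overlaps were tried.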

Additional observations from a re-analysis of the deposited data

How the results depend on the processing

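The 2 genes with a peak, CPSF2 and CPSF7, and the 2 peaks themselves gave the same counts and the same median −log10 q of 2.38 in all 22 values recomputed under 9 alternatives: peaks with a q-value under 0.05 (3317 peaks), peaks above the median value (3184 peaks), the midpoint inside the region, 0 or 5000 bases around the gene, 500 or 1000 bases around a start, 1 start per gene, and neighbouring peaks joined. The share of protein-coding genes beside which they are read did move. With a peak in the gene or around it, the 25.1% became 14.4% at a q-value under 0.05, 13.9% for peaks above the median value, 21.5% with 0 bases around the gene and 28.2% with 5000. With a peak at a start, the 15.7% became 8.97% at a q-value under 0.05, 8.65% for peaks above the median value, 10.8% by midpoint, 11.8% with 1 start per gene, 18.6% with 500 bases and 20.0% with 1000 bases. These shares follow from fewer or shorter or longer regions being counted. Leaving out a replicate was not possible, since the peaks were called on pooled reads, and depth per sample is unknown.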
